A study of Mus musculus with 11 samples.

Results

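NOD-like receptors are cytosolic proteins that sense microbial products, toxins and cell damage. NLRP3, NLRP1 proteins and NLRC4, and the DNA sensor AIM2, which belongs to another family, assemble inflammasomes. These bring in the protease caspase-1, often through the adaptor PYCARD (ASC). Caspase-1 matures interleukin-1β and interleukin-18 and cuts gasdermin D into a pore former. NOD1 and NOD2 instead bind peptidoglycan fragments and signal to NF-kB and MAP kinases, and in dendritic cells (DCs) both systems shape how the cells prime T cells. The 10 genes described here are Nlrp3, Nlrp1b, Nlrp1a, Nlrc4, Aim2, Nod2, Nod1, Pycard, Casp1 and Gsdmd, out of 22180 genes on the array that could be tested. Each gene is represented by a probeset that names it alone, chosen by the highest mean level over the 11 arrays, so this choice drew on the level and not on the difference between groups. The genes themselves were named as a family with results of these data known, so the number of them that changed is a description and carries no evidence of its own.

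DCs from C57BL/6 mouse spleens, sorted on CD11c and MHC class II to a purity above 95%, were profiled on a 1-colour whole-transcript Affymetrix array, 1 array per sample. The naive group has 6 arrays from naive C57BL/6 spleens, and the exposed group has 5 arrays from mice that received Eµ-Myc cells, an aggressive B cell lymphoma in which the immunoglobulin heavy-chain enhancer drives Myc in B cells. The mean tumour load of those spleens was 10 to 36% of lymphocytes; the labels give no age, sex, tumour clone or time after transfer, and none of these 11 samples is labelled as carrying a DC-specific Cre. The comparison asks what exposure to the lymphoma does to the DC transcriptome. Whether the arrays represent separate mice is not labelled, so p-values reflect only the scatter among these samples, which may be technical.

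Values are log2 expression as deposited, where a step of 1 is a doubling, and differences are exposed minus naive. Genes were called with limma where the p adjusted by Benjamini and Hochberg's method across the 22180 genes was under 0.05. Array medians lay between 5.53 and 5.61 and the correlation between any pair of arrays between 0.989 and 0.996. The labels number the arrays, and 731 genes differed between numbers 1 to 3 and numbers 4 to 6 (the number sets), for which the labels give no reason. Differences within each set are therefore given beside the pooled ones. In sorted bulk samples a lower level can mean fewer cells of one type or less RNA per cell, and the arrays cannot tell these apart.

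In the lymphoma spleens, transcripts of 4 of the 10 genes fell: Nlrp3, Nlrp1b, Nod2 and Nlrc4, each to between 66.1 and 76.6% of the naive level. No gene of the family rose. An unadjusted p under 0.05 in limma was found for 6 of the 10, all of them lower, and for 2710 of all genes (12.2%). Nlrp1a and Aim2 were also lower on average without passing the threshold. The downstream parts of the pathway, Pycard, Casp1 and Gsdmd, differed by 0.12 or less on the log2 scale, as did Nod1. The difference was negative for 9 of the 10 genes, and for 10306 of the 22180 tested. The median over the 10 was -0.29, against 0.01 over all genes. Over all genes tested, 121 (0.546%) were called lower and 195 (0.879%) higher. Of the 4 genes, Nlrp3 alone kept its call in every fit that left out 1 array.

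**Figure D1:**
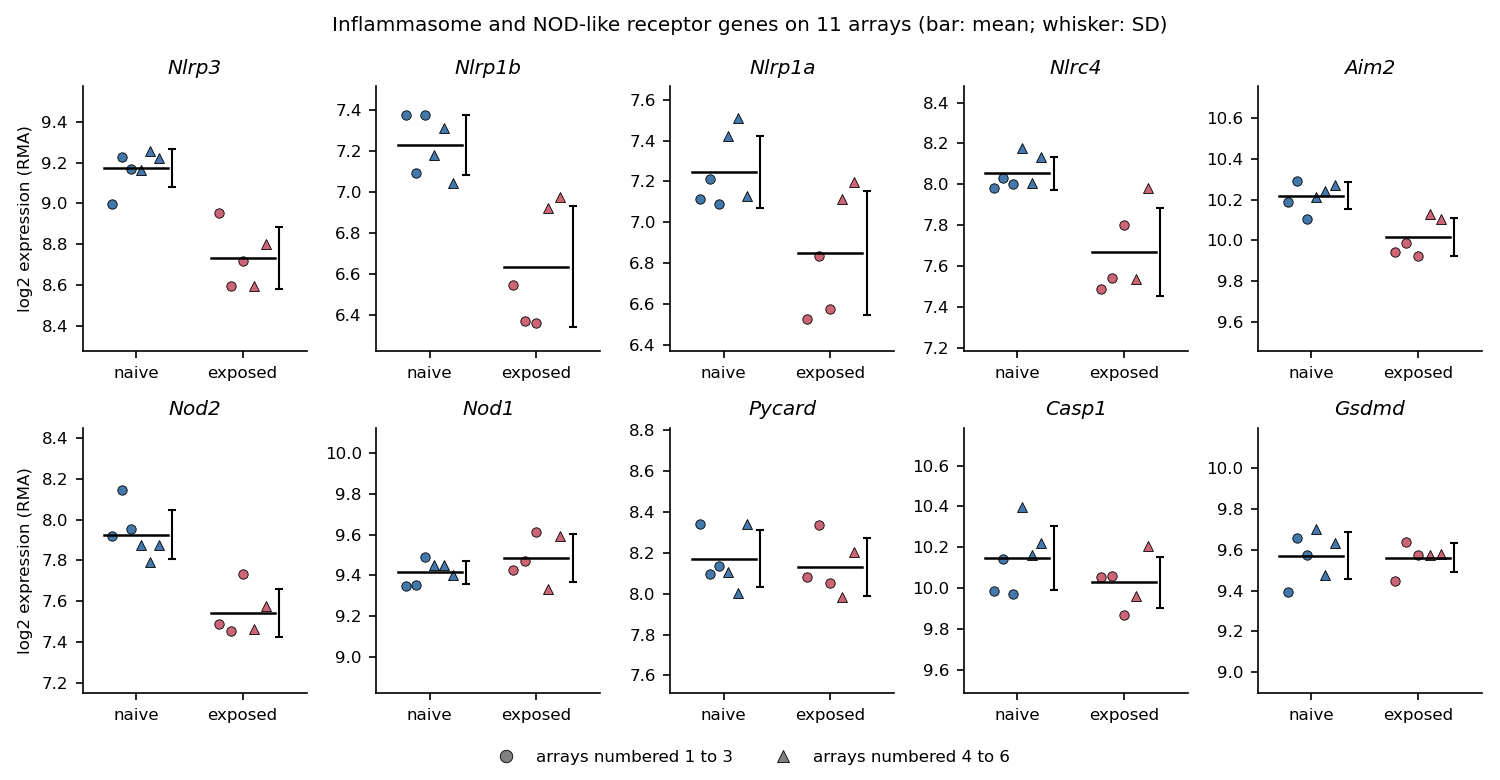
Each panel plots 1 gene's log2 expression (vertical axis) on the 6 naive and 5 exposed arrays; circles are arrays numbered 1 to 3, triangles 4 to 6, the horizontal bar is the group mean and the whisker the SD. Every exposed array lies below every naive array for Nlrp3, Nlrp1b, Nlrc4 and Nod2, while the groups overlap for the other 6 genes. Panels share the height of the axis range, not its position.

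The sequences just before the starts of the 4 genes called lower, and of Nlrp1a, the near-copy of Nlrp1b, are printed here because they show what these genes do and do not have in common. Each is the 250 bases before an annotated start, 5′ to 3′ on the gene's own strand, from RefSeq on GRCm38.p6, in lower case with motif matches on either strand in capitals. Windows were chr11:59541319-59541568 (plus strand) for the upstream of the 2 Nlrp3 starts, chr11:71230734-71230983 (minus) for the upstream of the 2 Nlrp1b starts, chr11:71144705-71144954 (minus) for Nlrp1a, chr17:74459109-74459358 (minus) for Nlrc4 and chr8:88647097-88647346 (plus) for Nod2.
Nlrp3: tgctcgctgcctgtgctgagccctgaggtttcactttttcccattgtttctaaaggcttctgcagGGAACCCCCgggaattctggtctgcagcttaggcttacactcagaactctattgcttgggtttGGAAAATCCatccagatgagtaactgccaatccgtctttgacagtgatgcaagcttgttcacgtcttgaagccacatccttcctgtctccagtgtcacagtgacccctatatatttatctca
Nlrp1b: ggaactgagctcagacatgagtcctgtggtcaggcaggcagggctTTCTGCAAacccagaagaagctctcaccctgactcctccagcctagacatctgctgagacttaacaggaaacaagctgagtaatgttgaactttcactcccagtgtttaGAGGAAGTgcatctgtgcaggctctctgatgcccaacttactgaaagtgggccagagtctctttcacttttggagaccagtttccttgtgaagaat
Nlrp1a: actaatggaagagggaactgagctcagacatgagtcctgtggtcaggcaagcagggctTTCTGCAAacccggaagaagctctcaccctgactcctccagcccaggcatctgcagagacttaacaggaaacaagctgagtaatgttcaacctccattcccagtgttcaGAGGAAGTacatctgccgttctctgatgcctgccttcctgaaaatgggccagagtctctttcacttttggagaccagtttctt
Nlrc4: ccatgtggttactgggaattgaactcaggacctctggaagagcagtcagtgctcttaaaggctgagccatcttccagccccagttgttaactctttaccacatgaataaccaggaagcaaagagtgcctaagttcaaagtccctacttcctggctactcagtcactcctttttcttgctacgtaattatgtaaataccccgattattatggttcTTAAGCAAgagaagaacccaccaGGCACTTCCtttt
Nod2: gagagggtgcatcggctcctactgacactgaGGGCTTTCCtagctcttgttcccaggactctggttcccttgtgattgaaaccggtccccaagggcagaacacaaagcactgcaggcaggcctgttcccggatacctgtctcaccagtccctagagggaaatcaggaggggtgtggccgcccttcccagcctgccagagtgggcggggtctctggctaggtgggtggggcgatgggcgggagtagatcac

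Nlrp1a and Nlrp1b are neighbours on chromosome 11 with 0 annotated genes between them. Their printed windows aligned over 237 bases with 219 identical (92.4%), and no other pair from different listed genes had more than 152 identical bases. In both, the capitals mark the same pair of motifs in the same order, TTGCNNAA on the opposite strand (written TTCTGCAA here), the core bound by C/EBP factors, and GAGGAAGT, bound by the DC and macrophage factor PU.1. In Nlrp3 and Nod2 the capitals mark GGNNNTTCC, an NF-kB core, on the opposite strand in Nlrp3 and on the gene's strand in Nod2. Nlrc4 holds 1 C/EBP core and 1 NF-kB core.

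A search for 6 motifs covered both strands of all 32851 windows of this length in the RefSeq table, and 9 of the 10 listed genes have an entry. The NF-kB core GGNNNTTCC was found for 4 of the 9 (Nlrp3, Nlrc4, Nod1, Nod2), against 18.52% of the 16990 tested genes with a window. TTGCNNAA was found for 4 (Nlrc4, Nlrp1b, Nlrp1a, Pycard), against 10.42%. GAGGAAGT was found for 4 (Nlrp1b, Nlrp1a, Aim2, Pycard), against 2.67%. Nlrp1b and Nlrp1a, whose printed windows are near-copies, count as separate genes for both TTGCNNAA and GAGGAAGT. The interferon-response core GAAANNGAA and the AP-1 site TGANTCA were found for 0 of the 9, against 7.97% and 7.44%, and the STAT site (GAS) TTCNNNGAA for Nod1 alone, against 7.82%. None of the motifs divides the genes that fell from those that did not: Nod1 and Pycard hold matches, and the 4 genes that fell do not share 1 motif. In Nod1 a GAS match and an NF-kB match overlap. A match is a string of letters and not evidence of binding.

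**Figure D2:**
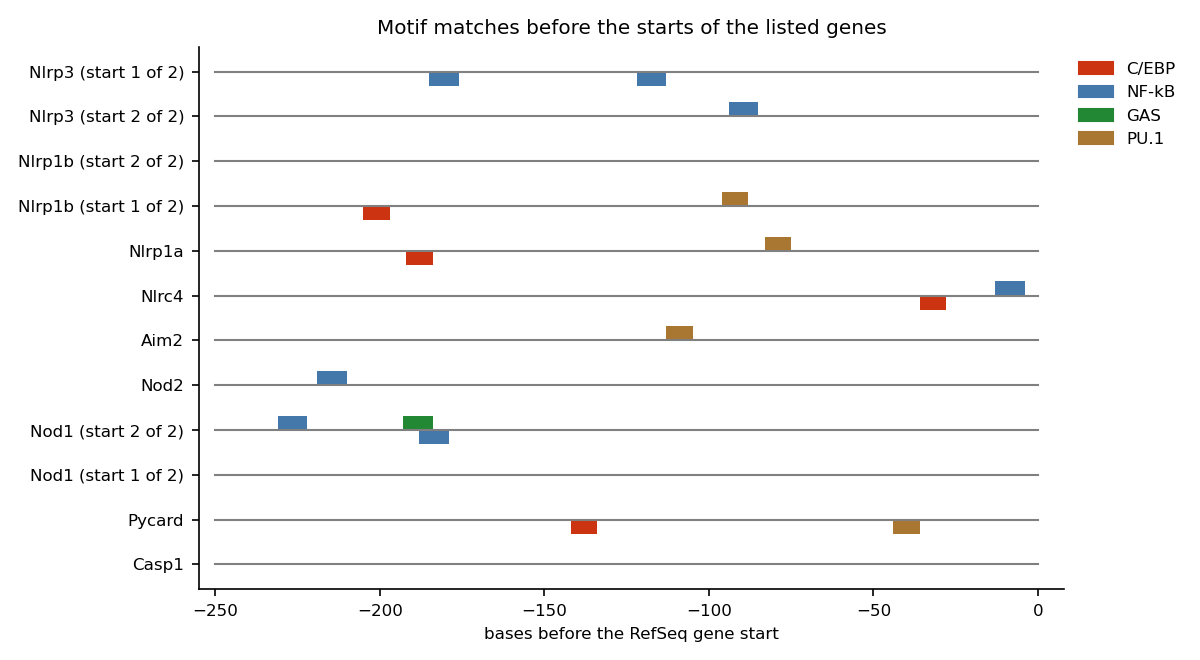
Motif matches in the 250 bases before each RefSeq start of the 9 listed genes with an entry (horizontal axis, bases before the start); boxes above a line are on the gene's strand and boxes below it on the opposite strand. Nlrp3, Nlrp1b and Nod1 have 2 annotated starts each. Nlrp1a and Nlrp1b start 1 show the same C/EBP and PU.1 pair, and Casp1 has no match.

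Nlrp3 encodes the sensor that responds to ion fluxes and damage signals, and induction of its transcript can prime the inflammasome. On the naive arrays it ranged from 8.997 to 9.25 with a median of 9.20 (probeset 17250249, chromosome 11). The exposed arrays 1, 2, 3, 4 and 6 read 8.95, 8.60, 8.72, 8.60 and 8.80. Every exposed array was below every naive array, although exposed 1 came close to naive 1, the lowest naive array. Naive DCs averaged 9.17 ± 0.09 (SD, n = 6) and exposed DCs 8.73 ± 0.15 (SD, n = 5). Nlrp3 was thus 1.36-fold lower, by -0.44 ± 0.07 on the log2 scale (SE; 95% limits -0.59 to -0.28). It passed the threshold in limma (adjusted p = 0.0118) and did so in each of the 11 fits that left out 1 array, where the highest adjusted p was 0.0367. Within arrays 1 to 3 alone Nlrp3 differed by -0.37, and within 4 to 6 by -0.52. Its call was lost in limma within each set alone (adjusted p = 0.245 and 0.136). It was also lost with the replicate field of the labels as a block (limma adjusted p = 0.0577).

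Nlrp1b encodes the rodent sensor that is activated by proteolysis, known for its cleavage by anthrax lethal factor. It had the largest difference of the 10. Naive arrays ranged from 7.04 to 7.38 with a median of 7.25 (probeset 17265496). The exposed arrays 1, 2, 3, 4 and 6 read 6.54, 6.37, 6.36, 6.92 and 6.97. The groups did not overlap, but exposed arrays 1 to 3 lay far below and exposed arrays 4 and 6 just below the lowest naive array. The means were 7.23 ± 0.15 (SD, n = 6) and 6.63 ± 0.30 (SD, n = 5), so Nlrp1b was 1.51-fold lower, by -0.60 ± 0.12 (SE; 95% limits -0.86 to -0.34; limma adjusted p = 0.0284). Within arrays 1 to 3 the difference was -0.86 and within arrays 4 to 6 it was -0.23. This contrast between number sets had an unadjusted p of 0.00129 in limma and did not pass adjustment over all genes (adjusted p = 0.992; 0 genes passed and 943 had an unadjusted p under 0.05). The call was lost when naive 1, 3, 4 or 5 or exposed 1, 2 or 3 was left out, with adjusted p up to 0.0838.

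Nlrp1a, the neighbouring paralog, encodes a sensor of the same build whose activation kills blood progenitor cells. Naive arrays ranged from 7.09 to 7.51 with a median of 7.17 (probeset 17265473). The exposed arrays read 6.52, 6.84, 6.57, 7.11 and 7.20 in the same order. Exposed arrays 1 to 3 were below every naive array and exposed 4 and 6 lay within the naive range. The difference of -0.40 ± 0.13 (SE; 95% limits -0.67 to -0.12) did not pass the threshold (limma adjusted p = 0.179), although blocking on number set gave -0.36 with an adjusted p of 0.0483. Because the paralogs are near-identical in places, probes of one may catch transcripts of the other, and how far their values are separate is uncertain. After subtracting group means, Nlrp1a and Nlrp1b correlated at r = 0.61 over the 11 arrays, which share the number sets.

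Nlrc4 encodes the sensor that NAIP proteins activate on binding flagellin and type III secretion proteins. Naive arrays ranged from 7.98 to 8.18 with a median of 8.02 (probeset 17347236, chromosome 17). The exposed arrays read 7.49, 7.54, 7.80, 7.53 and 7.98. All exposed arrays were below all naive arrays, with exposed 6 (7.97959) almost level with the lowest naive array (7.98045). Means of 8.05 ± 0.08 (SD, n = 6) and 7.67 ± 0.21 (SD, n = 5) differed 1.31-fold, by -0.39 ± 0.09 (SE; 95% limits -0.57 to -0.20), just past the threshold (limma adjusted p = 0.0464). The call remained in 1 of the 11 fits without 1 array, the one without exposed 6, and the adjusted p reached 0.136 in the others. It was also lost in limma without trend (adjusted p = 0.0531) and with median centring (adjusted p = 0.0787). The size of the difference was close in arrays 1 to 3 (-0.39) and in arrays 4 to 6 (-0.35).

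Aim2 encodes the sensor of cytosolic double-stranded DNA. Naive arrays ranged from 10.10 to 10.29 with a median of 10.23, and the exposed arrays read 9.94, 9.99, 9.92, 10.13 and 10.10 (probeset 17219643, chromosome 1). Of the 5 exposed arrays 4 were below every naive array, and exposed 4 fell within the naive range. The difference of -0.20 ± 0.05 (SE; 95% limits -0.31 to -0.09) missed the threshold (limma adjusted p = 0.0843). Aim2 differed by -0.24 in arrays 1 to 3 and by -0.13 in arrays 4 to 6, and passed when number set was blocked (-0.19, adjusted p = 0.0374).

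Nod2 encodes the receptor for muramyl dipeptide. Naive arrays ranged from 7.79 to 8.14 with a median of 7.90 (probeset 17503664, chromosome 8). The exposed arrays read 7.49, 7.45, 7.73, 7.46 and 7.58, all below the naive range. The means of 7.93 ± 0.12 (SD, n = 6) and 7.54 ± 0.12 (SD, n = 5) differed 1.31-fold, by -0.38 ± 0.07 (SE; 95% limits -0.54 to -0.23; limma adjusted p = 0.0196). The call remained in 10 of the 11 fits without 1 array and was lost without exposed 2 (adjusted p = 0.0642). Nod2 differed by -0.45 in arrays 1 to 3 and by -0.33 in arrays 4 to 6. A second probeset naming Nod2 alone (17548687) averaged 6.501 ± 0.09 (SD, n = 6) and 6.29 ± 0.14 (SD, n = 5), with 4 of 5 exposed arrays below every naive array. Its difference was smaller, -0.21 ± 0.07 (SE), and did not pass over all probesets (limma adjusted p = 0.296).

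Nod1, the receptor for diaminopimelic acid peptides, was the only listed gene with a positive difference. Naive arrays ranged from 9.35 to 9.49 and the exposed arrays read 9.43, 9.47, 9.61, 9.33 and 9.59, so 2 exposed arrays lay above and 1 below the naive range. The difference was 0.07 ± 0.06 (SE; 95% limits -0.05 to 0.20; limma adjusted p = 0.691). Nod1 and Nod2 were thus measured with limits that do not overlap, though the difference between the genes was not tested.

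The parts downstream of the inflammasome sensors did not pass the threshold. Pycard, the adaptor, averaged 8.17 ± 0.14 (SD, n = 6) and 8.13 ± 0.14 (SD, n = 5), with 4 of 5 exposed arrays inside the naive range of 8.01 to 8.34; its difference was -0.04 (95% limits -0.21 to 0.13; limma adjusted p = 0.902). Casp1, the protease, averaged 10.15 ± 0.16 and 10.03 ± 0.12, a difference of -0.12 (95% limits -0.29 to 0.05; limma adjusted p = 0.628). Gsdmd, the pore former, averaged 9.57 ± 0.12 and 9.56 ± 0.07, a difference of -0.01 (95% limits -0.14 to 0.12; limma adjusted p = 0.973). Its second probeset (17318176) averaged 7.03 in both groups. For these genes the limits exclude a fall as large as the mean difference of Nlrp3, without showing that the levels were equal.

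**Figure D3:**
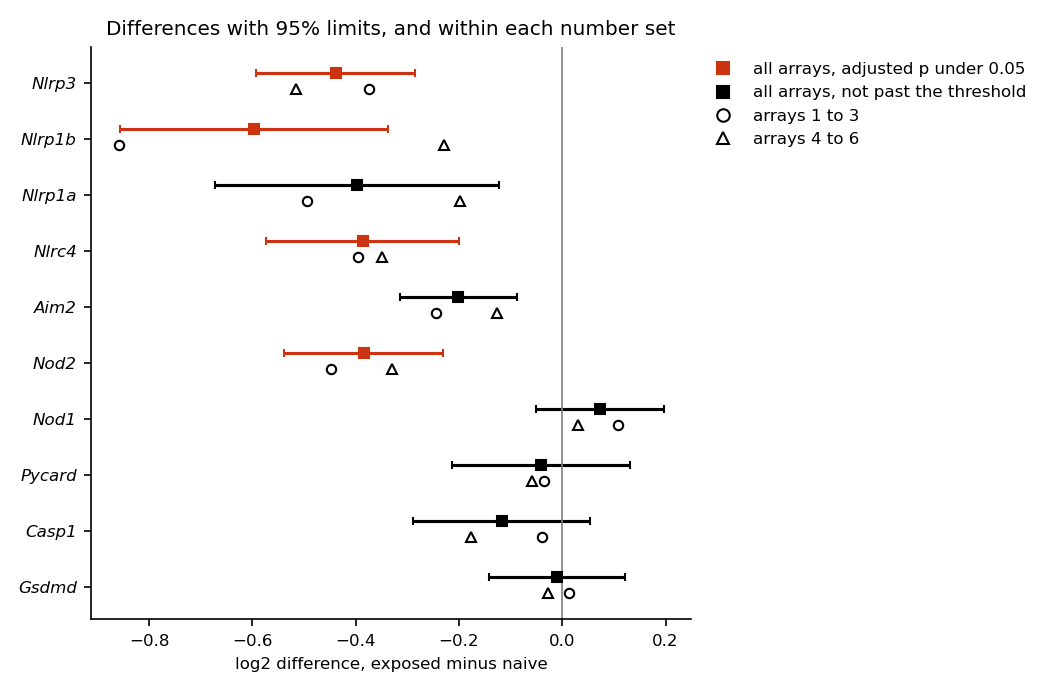
Squares with bars give the log2 difference, exposed minus naive, of each listed gene with its 95% limits in limma; open circles and triangles give the difference within arrays 1 to 3 and 4 to 6. Red marks genes past the threshold. Nlrp1b spreads from -0.86 to -0.23 between the number sets, while the circle and triangle of Nlrc4 nearly coincide.

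All exposed arrays were below all naive arrays for 4 of the 10 genes, against 194 of the 22180 tested (0.875%). When number set was blocked, 6 of the 10 were called lower, Nlrp1a and Aim2 being added, while the shares over all genes rose to 1.14% lower and 1.65% higher. Within 1 number set alone, where limma has few arrays, 0 of the 10 passed. Of all genes, 4 were called lower in arrays 1 to 3 and 3 in arrays 4 to 6. An unadjusted p under 0.05 in limma was found for 6 of the 10 in arrays 1 to 3 and 5 in arrays 4 to 6. The share of all genes with such a p within a set is not given here. Differences stayed negative for Nlrp3, Nlrp1b, Nlrp1a, Nlrc4, Aim2 and Nod2 in both sets. Leaving out exposed 2 left 1 of the 10, Nlrp3, while the genes called lower over the whole array went from 121 to 36.

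The rest of the pathway was described by 79 measured genes of 90 listed in 7 functional groups. Of these, 1 was called lower and 1 higher, against 0.546% and 0.879% of all genes. An unadjusted p under 0.05 in limma was found for 17, against 12.2% of all genes. These shares also stand beside the counts of each group below. Differences were negative for 38 and positive for 41, and the median was 0.01, the same as over all genes. A dim mark of 5.605 is the level under which 95% of olfactory receptor genes fall in these cells. Of the 79, 25 were at or below it. They stay in these counts and in the median, and the mark only limited which genes are named. Genes named are those called and, in each group, the pair above the dim mark with the largest differences.

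Among triggers and licensing factors, 11 genes were measured and 1 fell. Txnip, a thioredoxin-binding protein described as an NLRP3 partner and a glucose-regulated gene, ranged from 11.37 to 11.71 in naive DCs. Its exposed arrays read 10.99, 10.84, 10.89, 11.13 and 11.36. All exposed arrays lay below the naive range, by -0.49 ± 0.09 (SE; limma adjusted p = 0.0179), and the call was lost without exposed 2 (adjusted p = 0.0543). Mefv, which encodes pyrin, a sensor of bacterial toxin activity, had a difference of the same size, -0.49 ± 0.12 (SE), with exposed arrays at 9.13, 8.89, 9.59, 9.54 and 9.59 below naive arrays of 9.67 to 9.92. It did not pass (limma adjusted p = 0.0589) but did when number set was blocked (-0.47, adjusted p = 0.0267). Gbp5, an interferon-induced GTPase that promotes inflammasome assembly and is named after its value was seen, had a difference of 0.44 ± 0.11 (SE; limma adjusted p = 0.0840), and was called in the fit without exposed 4.

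Among other NLR genes, 23 were measured, 7 of them above the dim mark, and 0 passed in limma. Of the 23, 5 had an unadjusted p under 0.05 in limma, against 12.2% of all genes. Nlrp10, an NLR without a leucine-rich repeat, differed by -0.36 ± 0.13 (SE; adjusted p = 0.243), with exposed arrays at 6.62, 6.97, 6.61, 6.999 and 7.23 against naive arrays of 6.97 to 7.52. Naip6, of the family that feeds NLRC4, differed by -0.25 ± 0.09 (SE; adjusted p = 0.248). Ciita, the NLR protein that drives MHC class II transcription, is named after its value was seen: its exposed arrays of 11.23 to 11.40 all lay just below naive arrays of 11.40 to 11.50, a difference of -0.14 ± 0.04 (SE; adjusted p = 0.155).

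The AIM2-like receptors are interferon-inducible DNA-binding proteins related to AIM2. Differences were positive for 7 of 8 measured genes, against 11874 of 22180 over all genes, and the median was 0.13. In limma 0 were called, and 3 had an unadjusted p under 0.05, against 12.2% of all genes. Ifi204 differed by 0.96 ± 0.29 (SE; adjusted p = 0.155) with a wide spread: exposed 1 and 2 read 7.84 and 7.78, exposed 3, 4 and 6 read 5.98, 6.61 and 6.36, and naive arrays lay between 5.59 and 6.17. Mndal differed by 0.26 ± 0.10 (SE; adjusted p = 0.287). Ifi205, named after its values were seen, was higher on all exposed arrays (12.66 to 12.75) than on all naive arrays (12.47 to 12.63), by 0.13 ± 0.04 (SE; adjusted p = 0.108). Aim2 itself, in the same chromosome 1 family, had a negative difference.

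The cytokines that caspase-1 matures, and Il1a, were 3 measured genes with 0 calls (1 had an unadjusted p under 0.05). Il1b read 12.75 to 13.14 in naive and 12.83 to 13.17 in exposed DCs. The ranges overlapped, with 1 exposed array just above the naive range. The Il1b difference was -0.02 ± 0.08 (SE, limma adjusted p = 0.964). It is named outside the rule as the main substrate. Il18 differed by 0.13 ± 0.14 (SE; adjusted p = 0.781). Il1a, an alarmin that needs no caspase-1 cleavage, read 8.41, 7.31, 7.21, 6.34 and 6.20 on the exposed arrays against 5.27 to 6.48 on the naive ones. Its mean difference of 1.10 ± 0.33 (SE) did not pass (adjusted p = 0.147), but did when number set was blocked (1.01, adjusted p = 0.0489), and its highest arrays were exposed 1 to 3.

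Other inflammatory caspases and pore formers numbered 9 measured genes, 3 of them above the dim mark. Gsdma, a gasdermin of skin and gut, was called higher, from 4.00 ± 0.08 (SD, n = 6) to 4.30 ± 0.13 (SD, n = 5; limma adjusted p = 0.0450), but both levels lie below the dim mark, and the call remained in 2 of 11 fits without 1 array. Casp4, the mouse caspase-11 that senses lipopolysaccharide in the cytosol, differed by 0.21 ± 0.10 (SE; adjusted p = 0.472), and Ninj1, which ruptures the membrane of dying cells, by 0.22 ± 0.15 (SE; adjusted p = 0.632).

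Signalling below NOD1 and NOD2 was represented by 17 of 19 listed genes, as Ripk2 and Chuk were not analysed here. Of the 17, 0 passed in limma (1 had an unadjusted p under 0.05), and the median difference was -0.01. Birc2, a ubiquitin ligase of NOD2 signalling, had the largest difference, 0.30 ± 0.08 (SE; adjusted p = 0.0731), and passed when number set was blocked (0.29, adjusted p = 0.0367). Rnf31, the catalytic subunit of the linear ubiquitin ligase, differed by 0.12 ± 0.07 (SE; adjusted p = 0.519). Among 10 inhibitors 0 passed (2 had an unadjusted p under 0.05). Cyld, a deubiquitinase that trims linear chains, was below the naive range of 9.51 to 9.81 on all exposed arrays (9.31 to 9.47), a difference of -0.24 ± 0.06 (SE) that narrowly missed the threshold (adjusted p = 0.0505) and passed when number set was blocked (adjusted p = 0.0238). Tnfaip3, the deubiquitinase A20, differed by 0.26 ± 0.09 (SE; adjusted p = 0.231).

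**Figure D4:**
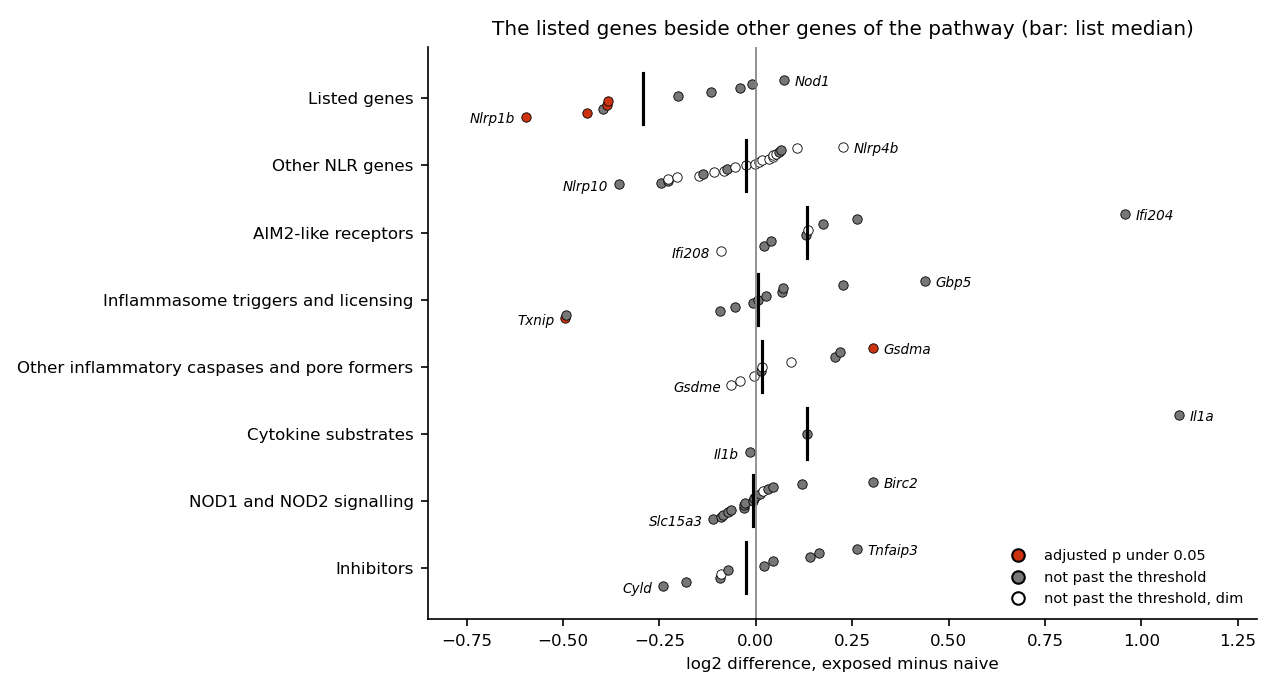
Each point is 1 gene's log2 difference, exposed minus naive (horizontal axis); rows are the 10 listed genes and the 7 other groups, bars are row medians, red marks an adjusted p under 0.05, and open points are genes at or below the dim mark of 5.605. The listed genes have a median of -0.29, and the medians of the other rows lie between -0.03 and 0.13.

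Markers of the sorted cells and of possible companions were set beside these values. Over 8 DC markers, Itgax (CD11c), Flt3 and Zbtb46 among them, the mean level was 11.13 to 11.27 on naive and 11.10 to 11.21 on exposed arrays, and the mean difference was -0.05 (exact permutation test, two-sided, p = 0.193). Xcr1, which marks the cross-presenting subset, differed by -0.01, and Sirpa, which marks the other conventional subset, by 0.06. Of the 8 DC markers 2 had positive differences and 0 were called in limma (2 had an unadjusted p under 0.05, Itgax at -0.14 and the DC factor Irf8 at 0.17); Irf4, a factor of the subset that Sirpa marks, differed by -0.22.

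The mean of the red pulp macrophage markers was higher on exposed 1 and 2 than on any naive array, while exposed 3, 4 and 6 lay inside the naive range. Their 10-gene mean was 8.17 to 9.42 on naive arrays and 10.91, 9.99, 9.14, 8.98 and 8.93 on exposed arrays 1, 2, 3, 4 and 6; 9 of the 10 differences were positive, 0 were called in limma (7 had an unadjusted p under 0.05), and the mean difference of 0.79 did not pass (exact permutation test, p = 0.0693, adjusted over 7 lists 0.242). Arrays 1 to 3 gave 1.16 and arrays 4 to 6 gave 0.21. The mean of each of the 10 over all arrays was above the dim mark. With exposed 1 and 2, which carried the most macrophage signal, left out together, Nlrp3 remained called (-0.47, limma adjusted p = 0.0191). Nlrp1b (-0.48, adjusted p = 0.170), Nod2 (-0.34, adjusted p = 0.124) and Nlrc4 (-0.28, adjusted p = 0.254) did not, on 3 exposed arrays. The part of macrophage RNA in the differences was not tested.

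The T and NK cell list of 7 genes, 2 of them above the dim mark, had a mean between 5.38 and 5.49 on naive arrays and between 5.47 and 5.78 on exposed arrays (difference 0.24; exact permutation p = 0.00433, adjusted over 7 lists 0.0303), and Ncr1, an NK cell receptor, was called higher by 0.46. Of the list's 7 differences 6 were positive; their part in the results was not tested. Monocyte (0.18), neutrophil (0.02), B cell (0.03) and plasmacytoid DC (0.04) list means differed by less than their spread between arrays, with exact permutation p between 0.258 and 0.753. The monocyte list read 7.19 and 7.16 on exposed 1 and 2, above the naive range of 6.51 to 7.12. Exposed 3, 4 and 6 lay inside that range. Of its 7 measured genes, 5 had positive differences and 0 were called. The neutrophil list had 1 of 9 genes above the dim mark. Of the 6 B cell markers 4 had positive differences, among them the antigen receptor chains Cd79a (0.36) and Cd79b (0.29), and 1 was called, the coreceptor Cd22, which was lower by -0.54.

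**Figure D5:**
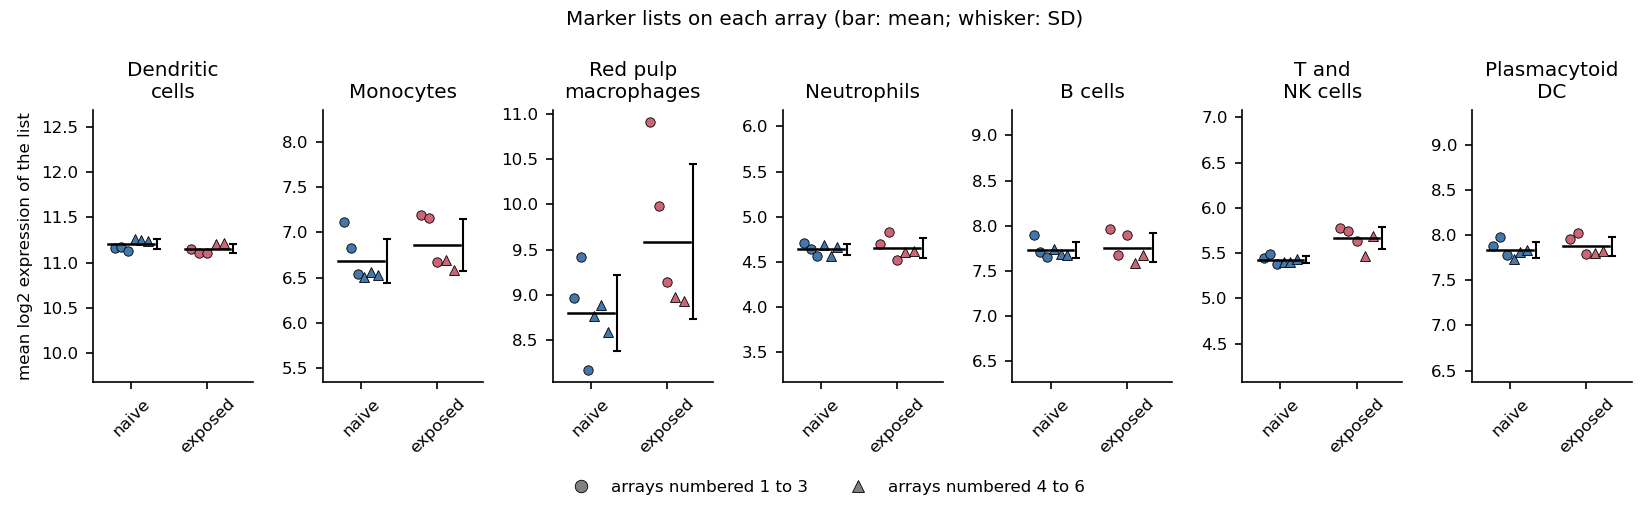
Mean log2 expression of each marker list (vertical axis) on every array; symbols, bars and whiskers are as in the plot of the 10 genes by array, and each panel spans the same height. The macrophage list is highest on exposed 1 and exposed 2, and the DC list lies between 11.10 and 11.27 on every array.

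The genes whose array-to-array pattern was most like that of Nlrp3, after subtracting group means and among 12609 genes above the dim mark, were Ncoa4 (r = 0.90), Cxcl11 (r = 0.88) and Zswim4 (r = 0.87). Over the same 11 arrays, Nlrp1b was most like Kdm5a (r = 0.92), Arhgap15 (r = 0.89) and Vamp4 (r = 0.89). Of these 6, Zswim4 was called lower in exposed DCs, by -0.45 (limma adjusted p = 0.0277). With so many candidates and 11 arrays that share the number sets, these are descriptions. Among the 10 genes themselves, the closest pairs were Nlrp1a with Aim2 (r = 0.74) and Nlrc4 with Nod1 (r = 0.71), whereas Nlrp3 and Nlrp1b were not alike (r = -0.13).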

How the data were processed

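RNA from 11 sorted splenic DC samples was hybridised to 1-colour arrays, 1 per sample. The authors deposited log2 expression values made with RMA, which corrects background, normalises between arrays and summarises probes, per the submitters' processing notes; the version is not given in the sources used here. Of 41801 probesets, 7329 were blank on every array, and 34472 had values; the deposited probe table names 1 gene for 23521 of them, several for 1814 and none for 9137. The probeset with the highest mean over all arrays stood for each of the 1082 genes with more than 1, leaving 22180 genes. For arrays, their number limits the precision.

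Differences, exposed minus naive, were fitted with limma 3.58.1 (lmFit, eBayes with trend) in R 4.3.3 on all genes, after the script was tested on simulated data, with Benjamini-Hochberg adjustment. Marker list means were compared with exact permutation tests over all 462 assignments. The dim mark is the 95th percentile of 1105 olfactory receptor genes. Promoter windows were searched with Python 3.11.15 and aligned with Biopython 1.88. Named were the 10 genes with every probeset, the called pathway genes, the 2 largest differences above the dim mark per pathway group, and for Nlrp3 and the listed gene with the largest difference the 3 genes most alike; exceptions are marked. The genes and lists were chosen with earlier results of these data known. Some of the listed pathway genes and markers were not analysed here, and Pyhin1, Pydc3 and Pydc4 were read as Ifi209, Ifi208 and Ifi213. Alternatives covered the limma settings, scaling, dim genes, probeset choice, blocks, number sets and each array left out; leaving out exposed 1 and 2 together was chosen after seeing the data.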

Additional observations from a re-analysis of the deposited data

Results flagged for a closer look

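Nlrp3 on naive array 1, at 8.9966, lay apart from the other naive arrays, the nearest of which read 9.16; the gap was 0.653 of the group's whole range. This was 1 of 28 such checks over the probesets of the 10 genes and of Txnip and Gsdma, and chance gives about 1 in 20. Without that array Nlrp3 was still called lower in limma.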

How the results depend on the processing

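Of the 10 genes, 4 were called lower and 0 higher in limma, where 121 of all genes were called lower. With the all-gene count lower of the same fit in brackets, 2 of the 10 were lower with every probeset tested by itself (Nlrp3, Nod2; 70), 2 with the title number as a replicate block (Nlrp3, Nod2; 151), 2 with the replicate field as a replicate block (Nlrp1b, Nlrp1a; 68), 1 with exposed 1 and 2 left out together (31), and 0 within arrays 1 to 3 (4) or 4 to 6 (3) alone, where fewer samples enter (6 and 5 of the 10 had an unadjusted p under 0.05). The count was 3, without Nlrc4, in limma without trend (97) and with median centring (99), 6 blocking on number set (252) and 5 with one 75th percentile for the arrays (215). Leaving out each array in turn gave 1 to 4.

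Of the 79 pathway genes, 1 was called lower; that count was 2 with robust fitting and with the mean of probesets (Txnip, Cyld), 2 with the title-number replicate block (Nlrp10, Txnip), 4 with one 75th percentile (Ciita, Txnip, Mefv, Cyld), 3 without dim genes and 3 blocking on number set (Txnip, Mefv, Cyld), and 0 within either number set alone or without exposed 1 and 2; leaving out 1 array gave 0 to 2. The 1 called higher became 0 with one 75th percentile, with every probeset, with the replicate field as a block, within either number set and without exposed 1 and 2, and 3 blocking on number set; leaving out 1 array gave 0 to 1. Without dim genes it was Birc2, and with the title-number block Il1a.

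Across the 14 other settings of fit, scaling, probesets, blocks and number sets, every listed gene kept its sign except Gsdmd, which kept it in 12. One 75th percentile turned the split of calls over all genes from 195 higher and 121 lower to 166 higher and 215 lower. Same-numbered arrays correlated at 0.0880 to 0.231 after removing group means, and 2 of 5 exposed arrays correlated best with their own number. No baseline was computed for these values, so they do not decide whether the numbers pair the arrays. The main fit did not pair arrays. An array without a partner adds nothing to a block fit. The causes of these changes were not tested.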
